A study of Mus musculus with 4 samples.

Results

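The cytosolic translation initiation factors and the elongation factors that work beside them were followed through the response of mouse CD8+ T cells to NaBu. The abbreviation usually stands for sodium butyrate, the salt of a bacterial fermentation product that inhibits histone deacetylases. The genes were chosen by name, as every symbol that starts with Eif1 to Eif6 or with Eef1 or Eef2. Eef1a1, the eIF2 kinases and the eIF4E-binding proteins were left out. The rule used no expression values, and it found 57 of the 17559 genes in the files, which fall under 8 factor numbers.

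The cells were OT-I CD8+ T cells, whose transgenic receptor recognises an ovalbumin peptide, on the C57BL/6 strain, from tissue labelled LN. They had been enriched by negative magnetic selection to a purity stated as over 95%. All groups were first activated for 2 days in medium holding 10 ng/ml IL-2, on plates to which antibodies to CD3 (used at 1 μg/ml) and to CD28 (used at 2 μg/ml) had been bound, and then kept for 2 days with IL-2 alone. They were then exposed to 1 mM NaBu for 12 h (2 libraries) or to control conditions for 12 h (2 libraries). The labels used here state neither age nor sex of the animals.

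Translation of most messages begins when eIF4E, the cap-binding subunit of the eIF4F complex, recruits the message together with the eIF4G scaffold and the eIF4A helicase. The small ribosomal subunit arrives loaded with eIF1, eIF1A, eIF3 and eIF2, of which eIF2 carries the initiator tRNA. eIF5 and eIF5B govern the step at which start codon recognition turns into joining of the large subunit, and elongation then runs on eEF1, which delivers aminoacyl-tRNA, and eEF2, which moves the ribosome along. Activated T cells are known to raise protein synthesis strongly as they leave quiescence.

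The libraries held 19859649 and 19857701 expected counts in NaBu cells, against 20344399 and 20548571 in control cells. The 57 genes took 2.076% and 2.075% of these counts in NaBu cells, against 1.948% and 1.971% in control cells. Eef2 alone accounted for 0.883% and 0.876% in NaBu cells, against 0.636% and 0.578% in control cells. Without Eef2 the order turned round, at 1.192% and 1.199% in NaBu cells, against 1.312% and 1.392% in control cells. These shares and the levels below, in FPKM (fragments scaled to transcript length and to all mapped fragments), are on the scale of the library total. Fold changes are NaBu over control, fitted by edgeR with TMM scaling, which centres the median log2 fold change of the 12943 tested genes near 0, at 0.005. On library totals that median was 0.102, a shift of 0.097, so that a gene can have a somewhat higher FPKM in NaBu cells and a fitted log2 fold change near 0. In bulk RNA, fewer cells of a type and less RNA per cell cannot be told apart.

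Of the 57 genes, 55 passed the filter on low counts, and 37 of them had an adjusted p under 0.05 in edgeR's quasi-likelihood test, adjusted over all tested genes by the Benjamini-Hochberg method. NaBu cells had lower levels of 30 and higher levels of 7. Over all tested genes 34.1% were called lower, 34.5% higher and 68.6% in either direction, so the total called was close to the background while most of the translation factors called were lower. Their median log2 fold change was -0.18, against 0.005 over all tested genes. On library totals the split was 20 lower and 11 higher, against 28.7% and 40.0% of all genes, and 68.7% in either direction. With the trend of fold change on GC content removed, an adjustment added after the data were seen, it was 28 lower and 9 higher, against 35.7% and 37.2% of all genes, and 72.9% in either direction.

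Most of the changes were small. Of the 37 called genes, 8 changed by 1.5-fold or more, of which 2, Eif4g2 and Eif4a1, changed by 2-fold or more. Calls of 1.5-fold or more made up 39.6% of all tested genes, and calls of 2-fold or more made up 23.1%. In a test against a fold change of 1.5 rather than against no change, 4 were called lower and 0 higher, against 12.1% and 17.1% of all tested genes, and 29.2% in either direction. The 4 were Eif4g2, Eif4a1, Eif5 and Eif1ad. The FPKM of the groups did not overlap for 35 of the 37 called genes, and the 2 that overlapped were Eif2s1 and Eif3a. Over all tested genes, called or not, the groups did not overlap for 84.0%. That is a wider base than the called genes, so 35 of 37 cannot be set against it. Of the 18 translation factors that did not pass, Eef1akmt1, Eef1d, Eif2s3x, Eif3e, Eif3j1, Eif3j2, Eif3m and Eif4e overlapped, and the others, such as Eif3d, did not. Lack of overlap was thus less common among these 18 than among the called genes. Leaving out NaBu 2 left 18 lower and 4 higher, against 26.5% and 27.6% of all genes tested in that fit. Leaving out NaBu 1 left 20 lower and 5 higher, against 26.6% and 27.5%.

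**Figure D1:**
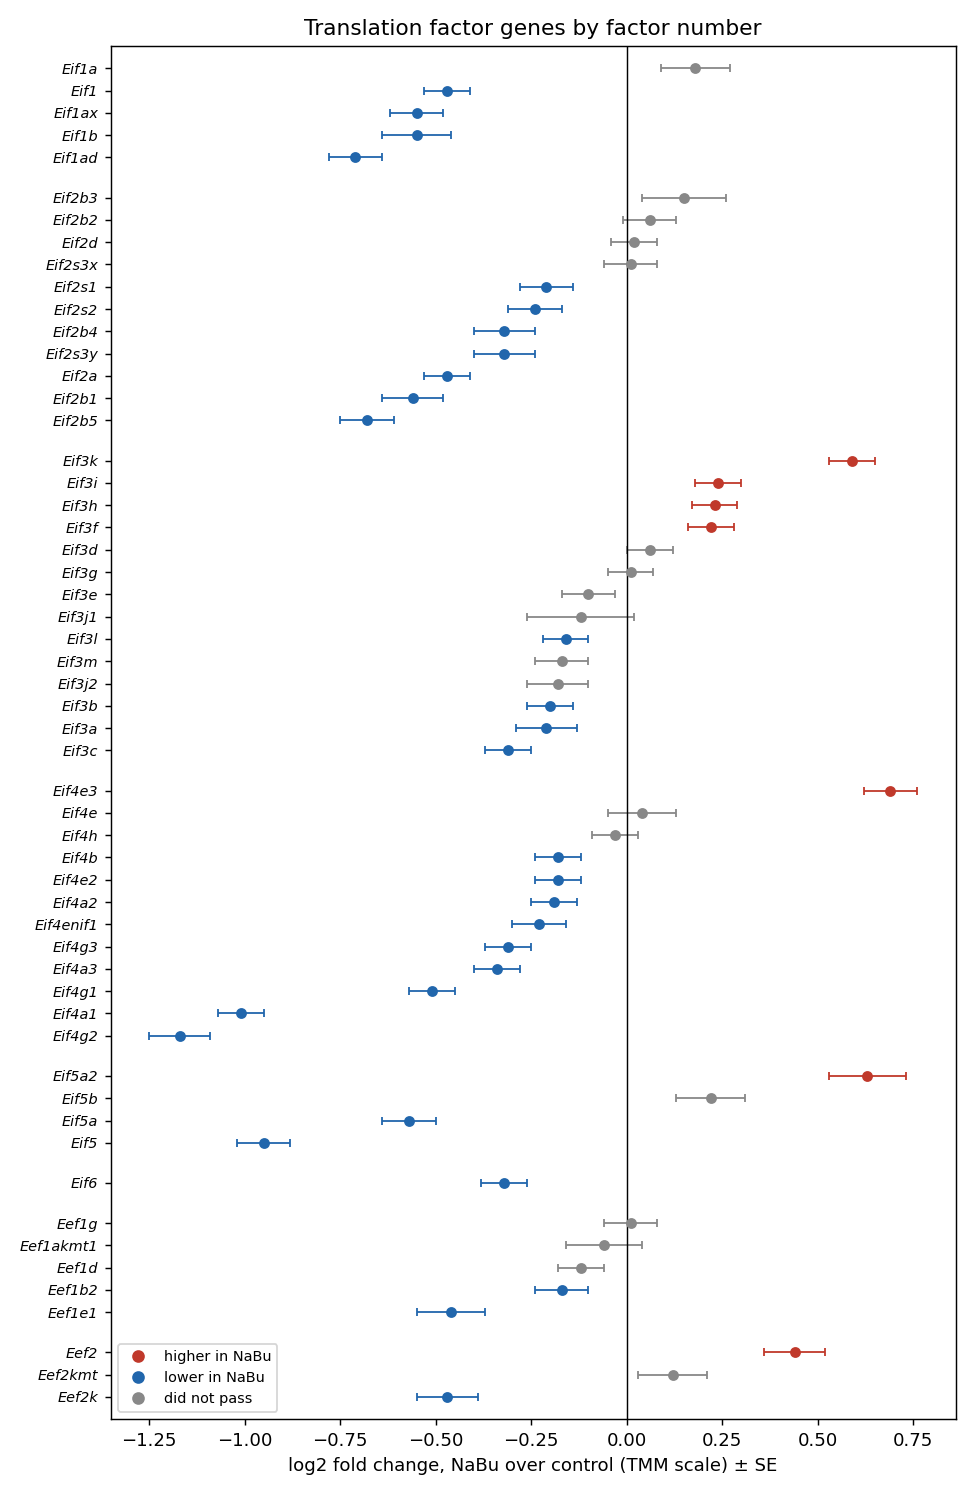
Fitted log2 fold change (NaBu over control, horizontal axis) of the 55 tested translation factor genes, grouped by factor number, with bars of 1 standard error. Red points are the 7 called higher, blue points the 30 called lower and grey points the 18 that did not pass. Eif4g2 lies farthest to the left at -1.17 and Eif4e3 farthest to the right at 0.69.

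The plot of fold changes by factor number shows how the calls were spread over small groups of genes. Over all tested genes 34.1% were called lower and 34.5% higher. Among eIF1 genes 4 of 5 fell and 0 rose, and among tested eIF4 genes 9 of 12 fell and 1 rose. Among the 11 eIF2 genes 7 fell and 0 rose, while of the 14 eIF3 genes 4 fell, 4 rose and 6 did not pass. The eIF3 split depended on scaling and libraries, with 1 lower and 5 higher on library totals. Its median log2 fold change was -0.17 without control 1, 0.01 without control 2, -0.12 without NaBu 1 and -0.09 without NaBu 2. On library totals the lower genes numbered 5 for eIF4 and 5 for eIF2. In that fit 28.7% of all tested genes were called lower and 40.0% higher. Over the fits that left out a library, the medians ran from -0.29 to -0.19 for eIF4 and from -0.34 to -0.14 for eIF2. Fewer genes of both were called lower without either NaBu library, as over all tested genes. With all libraries and TMM scaling, the medians of log2 fold change ran from -0.55 for eIF1 to 0.12 for the 3 genes named eEF2. Whether one factor number differed from another was not tested.

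Upstream sequence is shown for 6 genes picked because the E-box, the hexamer CACGTG recognised by Myc and related helix-loop-helix factors, lies upstream of each. Other genes with the hexamer are not shown. These are Eef2k, Eif1b, Eif3a and Eif5a, all called lower, and Eif4e and Eif4h, which did not pass. RefSeq promoters of GRCm38.p6, from 250 bases before to 50 bases after an annotated start, were matched for 44 of the 57 genes and gave 58 promoters. The E-box, which reads the same on either strand, was present in 14 of the 58 (24.1%), against 9.78% of the 13073 promoters of tested genes. The sequences below give the 200 bases before the start, 5′ to 3′ on the strand of the gene, with each E-box in capitals.
Eef2 (chr10:81176431-81176630, plus strand): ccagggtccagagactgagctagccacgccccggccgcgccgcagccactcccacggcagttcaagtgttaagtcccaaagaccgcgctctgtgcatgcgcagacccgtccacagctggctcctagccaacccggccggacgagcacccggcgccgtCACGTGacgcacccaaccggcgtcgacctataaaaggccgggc
Eif3k (chr7:28981889-28982088, minus strand): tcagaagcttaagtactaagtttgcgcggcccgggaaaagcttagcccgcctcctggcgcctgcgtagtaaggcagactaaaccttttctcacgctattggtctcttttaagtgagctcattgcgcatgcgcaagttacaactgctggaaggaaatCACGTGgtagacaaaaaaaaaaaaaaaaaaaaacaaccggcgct
Eif3f (chr7:108934215-108934414, plus strand): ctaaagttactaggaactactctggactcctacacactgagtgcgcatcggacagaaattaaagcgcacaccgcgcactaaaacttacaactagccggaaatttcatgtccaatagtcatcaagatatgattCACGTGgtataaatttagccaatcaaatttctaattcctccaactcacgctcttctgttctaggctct
Eif5a2 (chr3:28781077-28781276, plus strand): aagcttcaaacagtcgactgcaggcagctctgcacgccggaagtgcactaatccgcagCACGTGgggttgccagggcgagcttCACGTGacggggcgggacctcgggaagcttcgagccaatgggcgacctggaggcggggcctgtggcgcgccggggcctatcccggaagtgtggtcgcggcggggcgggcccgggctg
Eif4a1 (chr11:69672424-69672623, minus strand): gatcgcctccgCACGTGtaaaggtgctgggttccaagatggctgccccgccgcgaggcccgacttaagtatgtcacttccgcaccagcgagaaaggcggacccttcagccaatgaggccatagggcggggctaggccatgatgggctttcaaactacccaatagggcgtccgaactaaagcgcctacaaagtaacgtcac
Eif4g1 (chr16:20672527-20672726, plus strand): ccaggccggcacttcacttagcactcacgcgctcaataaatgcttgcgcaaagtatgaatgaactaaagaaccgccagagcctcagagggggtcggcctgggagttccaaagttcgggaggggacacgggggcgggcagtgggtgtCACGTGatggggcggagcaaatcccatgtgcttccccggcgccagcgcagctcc
The first base of the E-box lay 43 bases before the start of Eef2, 44 before Eif3k and 68 before Eif3f, all higher in NaBu cells. Eif5a2, also higher, carried a pair, at 142 and 117 bases before the start. Eif4a1 and Eif4g1, both lower in NaBu cells, had it 189 and 54 bases before the start, and Eif4g1 had another 16 bases after it, outside the stretch shown. By direction, the hexamer was found in 4 of the 4 higher genes with a matched promoter, in 6 of 28 lower genes and in 2 of 11 that did not pass. Over all tested genes with a matched promoter, it was found in 11.4% of those called higher, 12.1% of those called lower and 11.1% of the others. The 4 are among the 7 higher genes. CCAAT, or ATTGG on the other strand, was in 24.1% of the 58 promoters and in 38.1% of those of tested genes. TGACG, or CGTCA on the other strand, the core of the cyclic AMP response element, was in 46.6% and 30.5%. These are counts of letters and not of bound factors, and binding was not measured here.

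eIF1 and eIF1A open the small subunit for scanning and enforce the choice of start codon. Eif1, the main gene of its pair, had 194 and 210 FPKM in NaBu cells, against 259 and 265 FPKM in control cells. Its paralog Eif1b had 24.2 and 27.6 FPKM in NaBu cells, against 35.9 and 35.2 FPKM in control cells. Both fell, with no overlap between groups, by a log2 fold change of -0.47 ± 0.06 for Eif1 (SE, adjusted p = 7e-05) and -0.55 ± 0.09 for Eif1b (adjusted p = 0.00027). The pair kept its proportions, since Eif1b made up 11.1% and 11.6% of the summed FPKM in NaBu cells, against 12.1% and 11.7% in control cells. Eif1ad, which encodes a protein with an eIF1A-like domain, had 18.8 and 20.3 FPKM in NaBu cells, against 29.9 and 30.1 FPKM in control cells. It was 1.64-fold lower (log2 fold change -0.71 ± 0.07, adjusted p = 5.78e-06).

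The eIF1A protein itself comes from a near-identical pair of genes, of which 1 fell. Eif1ax, the X-linked copy, had 63.9 and 66.3 FPKM in NaBu cells, against 86.6 and 91.5 FPKM in control cells. It fell by 0.55 on the log2 scale (SE 0.07, adjusted p = 2.82e-05). Eif1a had 31.9 and 32.3 FPKM in NaBu cells, against 23.8 and 29.0 FPKM in control cells, and did not pass (log2 fold change 0.18 ± 0.09, adjusted p = 0.0841). It passed on library totals, with the replicate block, with a filter of at least 5 CPM and with limma on filtered FPKM. It also passed with the GC trend removed and without control 2. Eif1a therefore made up 33.3% and 32.7% of the pair in NaBu cells, against 21.6% and 24.1% in control cells. Reads of such pairs are divided between the copies by an estimate, so the split is less certain than the sum.

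eIF2 binds the initiator tRNA, and the genes for its 3 kinds of subunit showed small changes. Eif2s1, the alpha subunit whose phosphorylation restrains initiation under stress, had 33.4 and 32.3 FPKM in NaBu cells, against 33.3 and 37.6 FPKM in control cells. NaBu 1 lay just above control 1, and the fitted log2 fold change was -0.21 ± 0.07 (adjusted p = 0.0225). The call was lost on library totals, with the GC trend removed and without either NaBu library or control 2. Eif2s2, the beta subunit, had 71.3 and 68.9 FPKM in NaBu cells, against 72.2 and 82.4 FPKM in control cells (log2 fold change -0.24 ± 0.07, adjusted p = 0.0132), and lost its call on library totals and without either NaBu library. The gamma subunit is encoded by an X-linked and a Y-linked copy. The Y-linked copy Eif2s3y had 30.4 and 30.6 FPKM in NaBu cells, against 33.3 and 37.8 FPKM in control cells, and was called lower (log2 fold change -0.32 ± 0.08, adjusted p = 0.00358). The X-linked copy Eif2s3x had 88.2 and 85.2 FPKM in NaBu cells, against 75.6 and 85.8 FPKM in control cells, with overlapping groups (log2 fold change 0.01 ± 0.07, adjusted p = 0.944). Eif2s3y made up 25.6% and 26.4% of the pair in NaBu cells, against 30.6% in each control library. Its call was lost without NaBu 1 or NaBu 2.

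eIF2B, the exchange factor that reloads eIF2 with GTP, showed unequal changes across its 5 genes. Eif2b5, the catalytic subunit, had 19.5 and 22.1 FPKM in NaBu cells, against 30.7 and 31.6 FPKM in control cells. It was 1.60-fold lower (log2 fold change -0.68 ± 0.07, adjusted p = 1.49e-05). Eif2b1, of the regulatory part of the complex, had 13.0 and 13.6 FPKM in NaBu cells, against 17.8 and 18.9 FPKM in control cells (log2 fold change -0.56 ± 0.08, adjusted p = 0.000123). Eif2b4, another regulatory subunit, was lower by less, at -0.32 ± 0.08 (adjusted p = 0.00548), and lost its call without NaBu 2. Eif2b2 and Eif2b3 did not pass, at 0.06 ± 0.07 (adjusted p = 0.464) and 0.15 ± 0.11 (adjusted p = 0.239). The genes for one complex thus spanned log2 fold changes between -0.68 and 0.15. Eif2a, a separate protein that can deliver initiator tRNA on special messages and is not the alpha subunit of eIF2, had 31.7 and 29.7 FPKM in NaBu cells, against 39.3 and 40.0 FPKM in control cells (log2 fold change -0.47 ± 0.06, adjusted p = 7.31e-05). Eif2d, which acts in a related pathway and in recycling, did not pass (0.02 ± 0.06, adjusted p = 0.749).

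eIF3 is the largest initiation factor, a complex of many subunits that bridges the small ribosomal subunit and eIF4G. Its summed level was 2328 and 2327 FPKM in NaBu cells, against 2022 and 2060 FPKM in control cells. In NaBu cells the 4 subunit genes called higher were also the 4 most abundant. Eif3k, an accessory subunit, had 318 FPKM in each NaBu library, against 205 and 190 FPKM in control cells. It was 1.51-fold higher (log2 fold change 0.59 ± 0.06, adjusted p = 1.05e-05). Eif3h, Eif3f and Eif3i rose by less. Eif3h, the most abundant subunit message, had 431 and 429 FPKM in NaBu cells, against 355 and 330 FPKM in control cells (log2 fold change 0.23 ± 0.06, adjusted p = 0.00773). Eif3f had 346 and 341 FPKM in NaBu cells, against 272 and 279 FPKM in control cells (0.22 ± 0.06, adjusted p = 0.00695). Eif3i had 207 and 215 FPKM in NaBu cells, against 169 and 165 FPKM in control cells (0.24 ± 0.06, adjusted p = 0.00373). Groups did not overlap for any of these 4, but the calls of Eif3f and Eif3h were lost without either NaBu library, with adjusted p up to 0.113 and 0.103, and that of Eif3i without NaBu 2, at 0.0915.

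**Figure D2:**
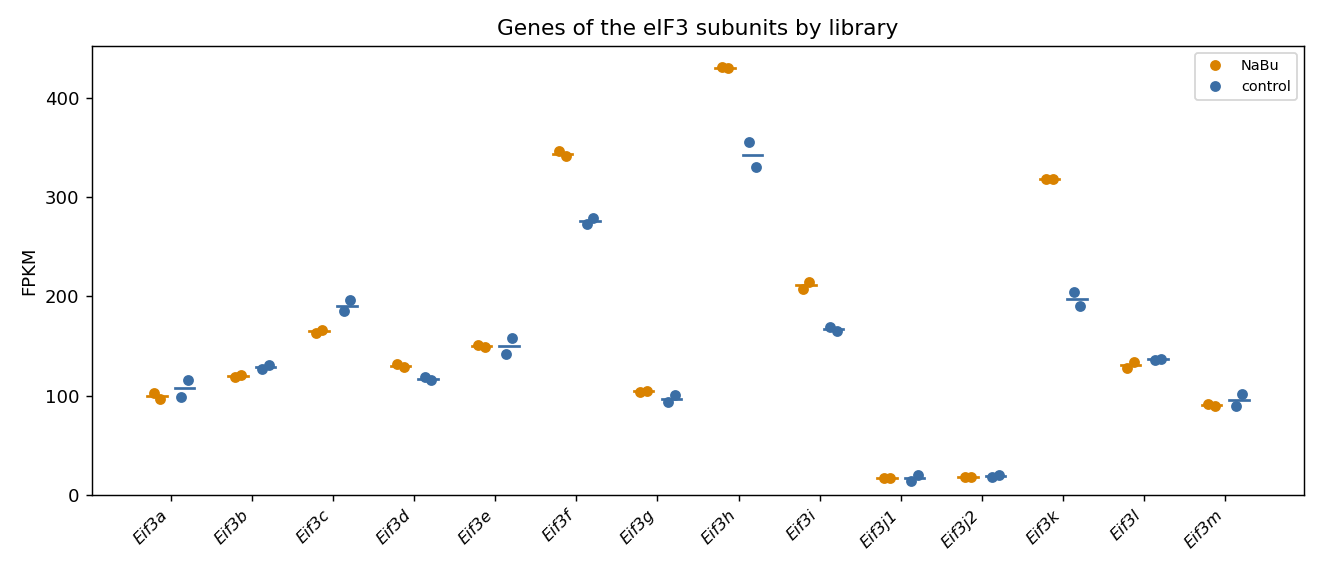
FPKM of the eIF3 subunit genes (vertical axis, linear from 0) in each library, with the 2 NaBu libraries left of the 2 control libraries for each gene. Eif3k, at 318 FPKM in each NaBu library, stands clear of the control libraries at 205 and 190 FPKM, while the points of Eif3a and Eif3e overlap between groups.

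Another 4 subunit genes were called lower. Eif3c, part of the core, had 163 and 166 FPKM in NaBu cells, against 185 and 196 FPKM in control cells (log2 fold change -0.31 ± 0.06, adjusted p = 0.0013), the only eIF3 gene called lower that kept its call under each alternative against no change. Eif3b, Eif3a and Eif3l were called lower by 0.16 to 0.21 on the log2 scale, at -0.20 ± 0.06 (adjusted p = 0.0111), -0.21 ± 0.08 (adjusted p = 0.0426) and -0.16 ± 0.06 (adjusted p = 0.0354). Each of these 3 lost its call on library totals, with limma on FPKM and without either NaBu library. Eif3l also lost its call with DESeq2, with the replicate block and with a filter of at least 5 CPM. Eif3a kept its call in only 4 of 15 alternatives, losing it also with the GC trend removed, with other size factors or filters and without control 2. Eif3d, Eif3e, Eif3g and Eif3m did not pass, and their log2 fold changes lay between -0.17 and 0.06. Eif3j1 and Eif3j2, a near-identical pair for the loosely bound subunit j, did not pass either, at -0.12 ± 0.14 (adjusted p = 0.481) and -0.18 ± 0.08 (adjusted p = 0.0828).

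The levels of the 12 stable subunit genes therefore lay farther apart in NaBu cells. The most abundant, Eif3h, stood 4.70-fold and 4.79-fold above the least abundant in NaBu cells, against 3.97-fold and 3.28-fold in control cells. Their coefficient of variation was 58.7% and 58.5% in NaBu cells, against 48.1% and 42.6% in control cells. The 4 higher genes had transcripts of 866 to 1507 bases, the 4 lower genes 1893 to 5176 bases and the 4 that did not pass 1068 to 1910 bases. No such order was seen over all translation factors, where the rank correlation of transcript length with log2 fold change was -0.0843 over 55 genes, given as a description. FPKM is divided by length, whereas the calls come from counts. The part of transcript length in the eIF3 calls was not tested.

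The eIF4 genes held the largest changes of the set. Eif4g2 (Entrez 13690, mm10 chromosome 7, 111067985 to 111083030), also called DAP5, encodes a relative of eIF4G that lacks the eIF4E-binding region and serves cap-independent initiation. It had 67.4 and 68.8 FPKM in NaBu cells, against 132 and 155 FPKM in control cells. The NaBu libraries lay close together and far below both control libraries. The fit gave a level 2.26-fold lower (log2 fold change -1.17 ± 0.08, adjusted p = 4.78e-07). Eif4a1 (Entrez 13681, chromosome 11, 69666936 to 69672423), the main helicase of eIF4F, had 247 and 252 FPKM in NaBu cells, against 466 and 476 FPKM in control cells. It was 2.02-fold lower (log2 fold change -1.01 ± 0.06, adjusted p = 1.94e-07).

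The paralogs of these genes fell by less. Eif4a2, the other helicase, had 52.7 and 50.5 FPKM in NaBu cells, against 53.6 and 57.2 FPKM in control cells (log2 fold change -0.19 ± 0.06, adjusted p = 0.017), a call lost on library totals, with the GC trend removed and without either NaBu library. Eif4a1 made up 82.4% and 83.3% of the summed level of the pair in NaBu cells, against 89.7% and 89.3% in control cells. Eif4a3, a core protein of the exon junction complex rather than of eIF4F, had 83.8 and 85.4 FPKM in NaBu cells, against 99.0 and 101 FPKM in control cells (-0.34 ± 0.06, adjusted p = 0.000412). Among the scaffolds, Eif4g1 had 94.2 and 95.1 FPKM in NaBu cells, against 123 and 129 FPKM in control cells (-0.51 ± 0.06, adjusted p = 3.51e-05). Eif4g3 had 28.8 and 28.6 FPKM in NaBu cells, against 33.1 and 33.2 FPKM in control cells (-0.31 ± 0.06, adjusted p = 0.000691). Within the 3 eIF4G genes, Eif4g2 took 35.4% and 35.7% of the summed level in NaBu cells, against 45.9% and 48.8% in control cells.

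**Figure D3:**
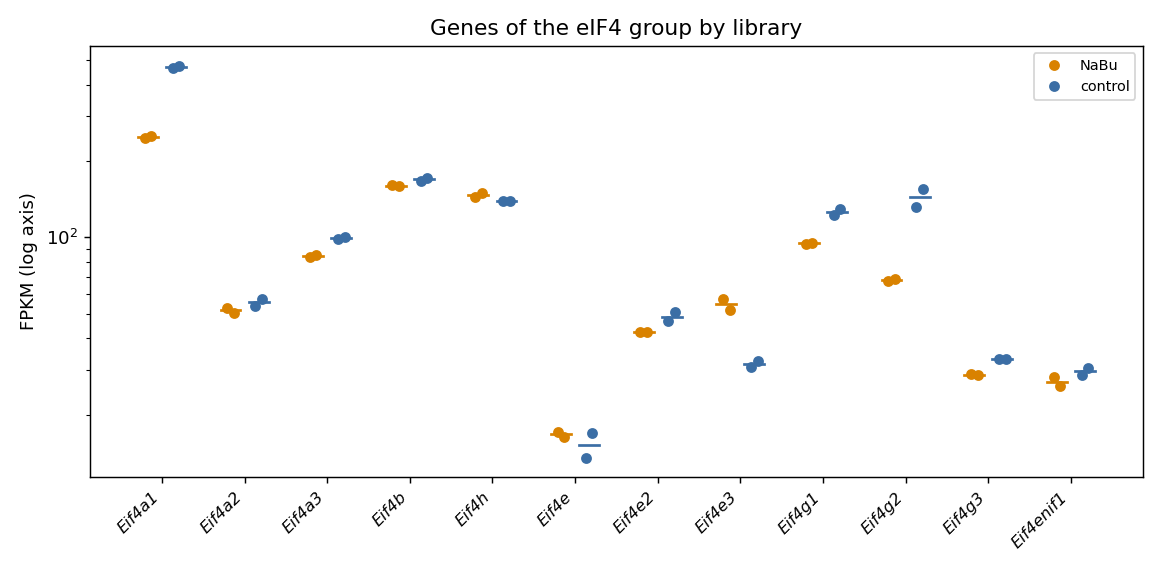
FPKM of the eIF4 genes (vertical axis, logarithmic) in each library, NaBu left of control for each gene. Eif4a1 and Eif4g2 show the widest downward gaps, and Eif4e3 is the only gene of this plot that was called higher, at 57.2 and 52.0 FPKM in NaBu cells against 30.7 and 32.5 FPKM in control cells.

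The cap-binding genes changed in makeup. Eif4e3 (Entrez 66892, chromosome 6, 99621879 to 99692873) encodes a cap-binding relative of eIF4E, for which competition with eIF4E is one reported role. It had 57.2 and 52.0 FPKM in NaBu cells, against 30.7 and 32.5 FPKM in control cells, and rose 1.62-fold (log2 fold change 0.69 ± 0.07, adjusted p = 6.55e-06). Against a fold change of 1.5 it did not pass, with an adjusted p of 0.071. Eif4e itself had 17.1 and 16.3 FPKM in NaBu cells, against 13.6 and 16.9 FPKM in control cells, with overlapping groups (0.04 ± 0.09, adjusted p = 0.753). Eif4e2, a cap-binding protein of translational repression, had 42.3 and 42.4 FPKM in NaBu cells, against 46.7 and 50.6 FPKM in control cells (-0.18 ± 0.06, adjusted p = 0.0204), and lost its call on library totals and without either NaBu library. Eif4e3 thus made up 49.1% and 46.9% of the summed level of these 3 genes in NaBu cells, against 33.8% and 32.5% in control cells, and exchanged the leading place with Eif4e2, at 36.2% and 38.3% in NaBu cells, against 51.3% and 50.6% in control cells.

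Eif4b, a cofactor of the helicase, had 160 and 159 FPKM in NaBu cells, against 167 and 172 FPKM in control cells (log2 fold change -0.18 ± 0.06, adjusted p = 0.0234). Eif4enif1, which carries eIF4E into the nucleus, was called lower as well (-0.23 ± 0.07, adjusted p = 0.00924). Both calls were lost on library totals and without NaBu 2, and that of Eif4b also without NaBu 1. Eif4h, a relative of Eif4b, did not pass (-0.03 ± 0.06, adjusted p = 0.685). Eif4e1b, a germ-cell relative of eIF4E, was too low to test, at 0.18 and 0.20 FPKM in NaBu cells, against 0.31 and 0.22 FPKM in control cells.

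**Figure D4:**
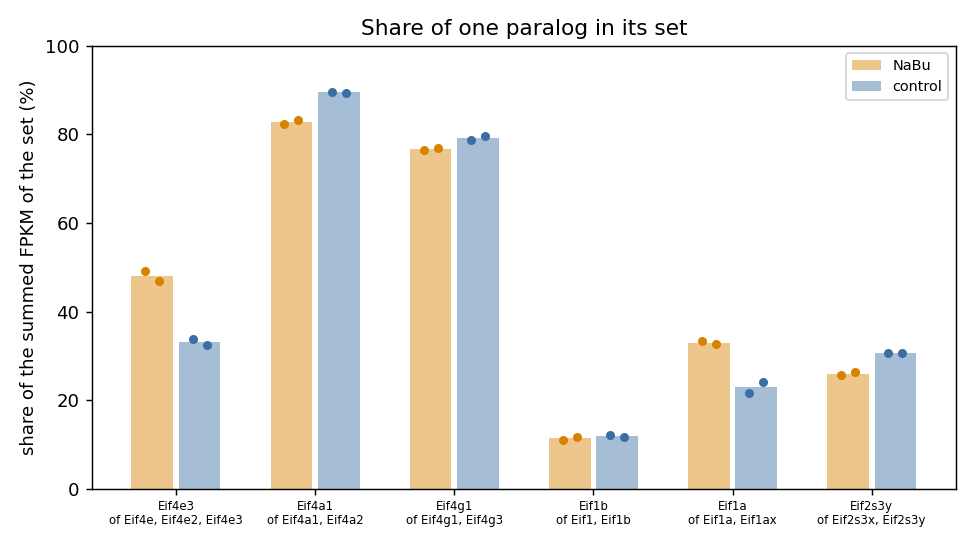
Share of a paralog set's summed FPKM (vertical axis, percent, from 0) taken by 1 gene, for Eif4e3, Eif4a1, Eif4g1, Eif1b, Eif1a and Eif2s3y. Bars are group means and dots are libraries, with NaBu left of control. Eif4e3 took 49.1% and 46.9% of its set in NaBu cells against 33.8% and 32.5% in control cells, and Eif1a took 33.3% and 32.7% against 21.6% and 24.1%, whereas Eif1b took close to the same share in both groups.

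The factors of start codon commitment and subunit joining included the third largest fall of the set. Eif5 (Entrez 217869, chromosome 12, 111538101 to 111546753), which makes eIF2 hydrolyse GTP at the start codon, had 52.9 and 52.2 FPKM in NaBu cells, against 89.5 and 101 FPKM in control cells. It was 1.93-fold lower (log2 fold change -0.95 ± 0.07, adjusted p = 7.69e-07), with the groups far apart. Eif5b, the GTPase that joins the large subunit, had 25.4 and 25.6 FPKM in NaBu cells, against 18.1 and 22.9 FPKM in control cells. It did not pass (0.22 ± 0.09, adjusted p = 0.062). It did pass with DESeq2, on library totals, with the replicate block and with a filter of at least 5 CPM. The same held for limma on filtered FPKM, with the GC trend removed and without control 2, so the result for Eif5b depended on the method. Eif6, which keeps the large subunit from joining too early and takes part in its assembly, had 56.0 and 57.5 FPKM in NaBu cells, against 67.2 and 65.3 FPKM in control cells. It fell by 0.32 on the log2 scale (SE 0.06, adjusted p = 0.00072).

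eIF5A carries hypusine, a modified lysine found in this protein, and is known to help ribosomes through difficult peptide bonds. Eif5a (Entrez 276770, chromosome 11, 69916712 to 69921958) had 639 and 680 FPKM in NaBu cells, against 892 and 926 FPKM in control cells. It was 1.48-fold lower (log2 fold change -0.57 ± 0.07, adjusted p = 2.56e-05). Its paralog Eif5a2 (Entrez 208691, chromosome 3, 28781032 to 28798846) had 5.66 and 5.43 FPKM in NaBu cells, against 3.03 and 3.65 FPKM in control cells, and rose 1.55-fold (0.63 ± 0.10, adjusted p = 0.000255). The pair thus moved in opposite directions from very unequal levels. Eif5a2 made up 0.879% and 0.793% of the pair in NaBu cells, against 0.338% and 0.393% in control cells.

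Among the elongation factors, 2 of 5 tested eEF1 genes fell and 0 rose, against 34.1% and 34.5% of all tested genes. Eef1a2, the muscle and neuron form of eEF1A, was near 0, with 1 count over the NaBu libraries and 0 over the control libraries. Eef1b2, of the complex that recharges eEF1A with GTP, had 186 and 188 FPKM in NaBu cells, against 189 and 207 FPKM in control cells. It was called lower (log2 fold change -0.17 ± 0.07, adjusted p = 0.036), but not on library totals nor without either NaBu library or control 2. Its partners Eef1d (-0.12 ± 0.06, adjusted p = 0.115) and Eef1g (0.01 ± 0.07, adjusted p = 0.892) did not pass. Eef1g, the most abundant of the 3, had 768 and 777 FPKM in NaBu cells, against 698 and 736 FPKM in control cells. Eef1e1, an auxiliary protein of the multi-tRNA-synthetase complex despite its name, had 19.3 and 18.1 FPKM in NaBu cells, against 22.7 and 25.3 FPKM in control cells (-0.46 ± 0.09, adjusted p = 0.00129). Eef1akmt1, a lysine methyltransferase of eEF1A, did not pass (-0.06 ± 0.10, adjusted p = 0.612).

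Eef2 (Entrez 13629, chromosome 10, 81176631 to 81182509) was the most abundant message of the set and the only gene named eEF1 or eEF2 that was called higher with TMM scaling. It had 2808 and 2785 FPKM in NaBu cells, against 2022 and 1839 FPKM in control cells. The groups lay far apart relative to the spread within each, and the fit gave a 1.36-fold rise (log2 fold change 0.44 ± 0.08, adjusted p = 0.000667). Eef2k, the kinase that phosphorylates and inhibits eEF2, had 3.35 and 3.53 FPKM in NaBu cells, against 4.45 and 4.47 FPKM in control cells, and fell by 0.47 on the log2 scale (SE 0.08, adjusted p = 0.000465). The methyltransferase Eef2kmt did not pass (0.12 ± 0.09, adjusted p = 0.237), though it did on library totals and with limma on FPKM.

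**Figure D5:**
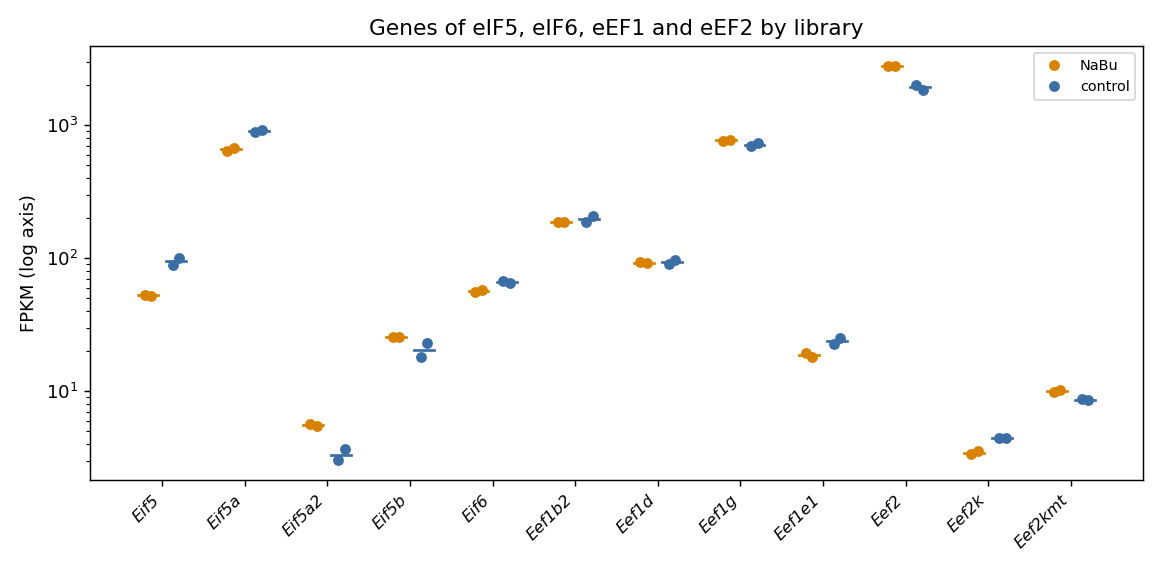
FPKM of the eIF5, eIF6, eEF1 and eEF2 genes (vertical axis, logarithmic) in each library, NaBu left of control for each gene. Eef2 tops the plot at 2808 and 2785 FPKM in NaBu cells against 2022 and 1839 FPKM in control cells, while Eif5 and Eif5a are lower in NaBu cells and Eif5a2 is higher at a low level.

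Summing the deposited FPKM values over each factor number puts these changes on 1 scale, that of the library total. eIF4 summed to 1023 and 1025 FPKM in NaBu cells, against 1333 and 1393 FPKM in control cells, and eIF5 to 723 and 763 FPKM, against 1003 and 1053 FPKM. Most of the eIF5 sum was Eif5a, at 639 and 680 FPKM in NaBu cells, against 892 and 926 FPKM in control cells. eIF1 summed to 332 and 356 FPKM in NaBu cells, against 435 and 451 FPKM in control cells. The eEF2 genes summed to 2821 and 2799 FPKM in NaBu cells, against 2035 and 1852 FPKM in control cells, nearly all of it Eef2 itself. The groups of eIF2 and eEF1 lay closer together, at 394 and 385 FPKM in NaBu cells, against 399 and 435 FPKM in control cells for eIF2, and at 1083 and 1095 FPKM, against 1018 and 1082 FPKM for eEF1.

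The regulators of these factors moved in both directions. Over all tested genes 34.5% were called higher and 34.1% lower, the shares to read beside each count below. Of 8 tested genes for eIF2 kinases, their partners and the phosphatase subunits, 2 were called higher and 5 lower, and the median log2 fold change was -0.23. Ppp1r15a (GADD34), the inducible subunit that reverses eIF2 alpha phosphorylation, had 28.7 and 28.1 FPKM in NaBu cells, against 13.1 and 11.4 FPKM in control cells (1.12 ± 0.08, adjusted p = 7.23e-07). Its constitutive counterpart Ppp1r15b fell (-0.64 ± 0.06, adjusted p = 3.83e-06). Of the kinases, Eif2ak4 (GCN2) rose by 0.21 ± 0.08 (adjusted p = 0.0338) and Eif2ak2 (PKR) fell by 0.42 (SE 0.07, adjusted p = 0.000464). Without NaBu 1 the count of lower genes was 2, and on library totals it was 3. The count of higher genes was 1 without control 1 or without either NaBu library. Of 12 genes of the ATF4 and stress response, which lies downstream of eIF2 phosphorylation, 5 rose and 5 fell. Atf4 itself was among those that fell, with 112 and 108 FPKM in NaBu cells, against 173 and 166 FPKM in control cells (-0.72 ± 0.06, adjusted p = 2.02e-06). Atf3 (1.98 ± 0.11, adjusted p = 9.56e-08) and Cebpb (1.91 ± 0.15, adjusted p = 1.04e-06) led the rises, whereas Chac1 (-1.18 ± 0.13, adjusted p = 1.95e-05) and Vldlr (-1.06 ± 0.17, adjusted p = 0.000214) led the falls.

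Around eIF4F, 6 of 16 partner genes were called higher and 5 lower, close to the shares of all tested genes, 34.5% and 34.1%. Their median log2 fold change was 0.05. Pabpc1, the poly(A)-binding protein that circularises messages through eIF4G, had 1798 and 1713 FPKM in NaBu cells, against 1049 and 1103 FPKM in control cells (0.61 ± 0.07, adjusted p = 3.32e-05). Mknk1, a kinase of eIF4E, rose (0.68 ± 0.08, adjusted p = 3.13e-05). Eif4ebp1, a repressor that mTOR releases from eIF4E, had 64.5 and 71.1 FPKM in NaBu cells, against 112 and 90.2 FPKM in control cells (-0.68 ± 0.10, adjusted p = 0.000123). Its paralog Eif4ebp2 rose, with 115 FPKM in each NaBu library, against 78.2 and 76.6 FPKM in control cells (0.47 ± 0.06, adjusted p = 3.13e-05). The third paralog, Eif4ebp3, was less abundant and fell (-0.39 ± 0.12, adjusted p = 0.0168). Cyfip1, another eIF4E-binding protein, also fell (-0.41 ± 0.07, adjusted p = 0.000314). The count of lower genes was 3 on library totals, without NaBu 1 and without NaBu 2.

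Of the 9 genes of the pathways that place hypusine on eIF5A and diphthamide on eEF2, 7 were called lower and 0 higher. Their median log2 fold change was -0.43, and 34.1% of all tested genes were called lower and 34.5% higher. The hypusine enzymes differed, as Dhps was called lower (-0.40 ± 0.09, adjusted p = 0.00289) and Dohh did not pass (-0.09 ± 0.11, adjusted p = 0.494). Dph1 (-0.57 ± 0.11, adjusted p = 0.000715) and Dph2 (-0.45 ± 0.15, adjusted p = 0.0189), which form the first complex of diphthamide synthesis, showed the largest falls among the 9. The count of lower genes was 3 without NaBu 1 and 4 without NaBu 2. Of 4 tested methyltransferases of elongation factors, Eef1akmt1 among them, 0 rose and 0 fell. Of 9 termination and recycling genes 2 rose and 4 fell, with Gspt2, a release factor GTPase, at 0.63 ± 0.22 (adjusted p = 0.0259) and Hbs1l, a ribosome rescue factor, at 0.41 ± 0.06 (adjusted p = 0.000211). N6amt1, part of the methyltransferase of release factor eRF1, had -0.64 ± 0.14 (adjusted p = 0.0016) and Mcts1, of the recycling pair with Denr, -0.62 ± 0.11 (adjusted p = 0.000523). Without control 1 or without NaBu 2, 1 of these genes was called higher.

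Of 10 mitochondrial translation factors 1 rose and 4 fell, against 34.5% and 34.1% of all tested genes called higher and lower. Fewer fell without NaBu 2. Tufm, the mitochondrial elongation factor Tu, rose (0.43 ± 0.06, adjusted p = 6.78e-05), and the release factor genes Mtrf1 (-0.75 ± 0.19, adjusted p = 0.00449) and Mtrf1l (-0.60 ± 0.14, adjusted p = 0.00266) fell. The cytosolic ribosomal protein genes stayed close to the centre, with a median log2 fold change of 0.01 over 83 tested genes, 17 higher and 10 lower. Both counts are smaller shares than the 34.5% and 34.1% of all tested genes. Rps10 (0.37 ± 0.08, adjusted p = 0.00188) and Rpl24 (0.35 ± 0.07, adjusted p = 0.000662) rose most. Rps27l (-0.61 ± 0.08, adjusted p = 5.72e-05) and Rpl22l1 (-0.56 ± 0.14, adjusted p = 0.00382), both paralogs of a standard ribosomal protein gene, fell most. On library totals the split was 29 higher and 5 lower, against 40.0% and 28.7% of all tested genes. Fewer were called in either direction without NaBu 1 or NaBu 2, where the median log2 fold change was 0.05 and -0.02.

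The markers of the sorted cell type were present. Of 7 CD8 T cell markers measured, 1 rose and 6 fell, where 34.5% of all tested genes were called higher and 34.1% lower. They summed to 1643 FPKM in each NaBu library, against 1814 and 1750 FPKM in control cells. Cd3g was the one that rose (0.41 ± 0.06, adjusted p = 0.00022), while Cd3d (-0.74 ± 0.06, adjusted p = 2.56e-06) and Cd8b1 (-0.58 ± 0.06, adjusted p = 7.68e-06) fell most. Most markers of other cells were low, and some differed between groups. Cd68 and Zbtb7b were not low, as both lay above the median level of tested genes, 9.27 FPKM, in each library. The 8 myeloid and dendritic cell markers measured summed to 40.3 and 38.4 FPKM in NaBu cells, against 16.4 and 14.8 FPKM in control cells. Most of that was Cd68, at 28.4 and 27.1 FPKM in NaBu cells, against 11.4 and 9.59 FPKM in control cells (1.31 ± 0.10, adjusted p = 9.33e-07). Of the 5 tested, 4 rose, led by Itgam (3.16 ± 0.17, adjusted p = 7.45e-08) and Mpeg1 (2.59 ± 0.23, adjusted p = 3.35e-06), and Xcr1 fell (-1.44 ± 0.15, adjusted p = 9.51e-06). Adgre1 was at 0.02 and 0 FPKM in NaBu cells and 0 FPKM in each control library. The 3 CD4 T cell markers summed to 27.0 and 27.2 FPKM in NaBu cells, against 21.1 and 19.4 FPKM in control cells, most of it Zbtb7b (0.29 ± 0.06, adjusted p = 0.00209). Cd4 itself, named here after its values were seen because it lies under the level set for naming genes, had 0.66 and 0.65 FPKM in NaBu cells, against 0.02 and 0.03 FPKM in control cells. That was 81 counts over the NaBu libraries against 3 over the control libraries, and it was called higher (4.59 ± 0.47, adjusted p = 8.87e-06). The sums were 2.62 and 1.96 FPKM, against 5.73 and 4.07 FPKM for 3 B cell markers, 4.94 and 5.57 FPKM, against 10.5 and 9.34 FPKM for 2 NK cell markers, and 6.59 and 7.24 FPKM, against 1.16 and 1.29 FPKM for 2 erythroid markers. The erythroid markers went opposite ways, as Hbb-bs was at 0 FPKM in each NaBu library, against 0.16 and 0.48 FPKM in control cells (0 and 8 counts over the groups), and was too low to test. The tested members of these sets were Cd79b (-1.22 ± 0.22, adjusted p = 0.000565), Klrb1c (-1.0 ± 0.10, adjusted p = 8.91e-06) and Hba-a1 (2.83 ± 0.28, adjusted p = 7.47e-06). The part of these marker levels in the changes of the translation factors was not tested.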

How the data were processed

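RNA of 4 libraries, 2 NaBu and 2 control by their titles, was quantified with RSEM and Bowtie2 on mm10; the submitters' processing notes name these without versions. No source used here gives the library kit, strand setting or annotation release. The deposited files hold, per gene and library, an expected count that the authors did not normalize and, per the file headers, transcript lengths and FPKM values (fragments scaled to length and mapped fragments). The FPKM values of the deposited table of all libraries equal those of the single files, with a largest difference of 0.0. RSEM divides reads shared by near-identical genes by estimation. Depth was 19857701 to 20548571 expected counts per library, and the lowest count of a tested translation factor was 273.

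Expected counts were rounded and tested with edgeR 4.0.16 in R 4.3.3 (TMM, filterByExpr, quasi-likelihood F test, NaBu over control, no covariates), on 12943 genes. P-values were adjusted over all of them by the Benjamini-Hochberg method, with calls made under 0.05. The standard error of a log2 fold change is its size divided by the square root of F. Nothing in the labels says whether replicates came from different cultures or animals, and p-values therefore reflect a spread between libraries that may be technical only. With 2 libraries a group the smallest two-sided p of an exact permutation test is 0.333, and none was run.

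The members, the lists of other genes and the cell markers were chosen with earlier results of these data known. Values in full were given to the 3 called genes with the largest change in each factor number, to the core factors and paralog sets fixed by name, and to up to 2 called genes per direction of each other list. Eif4ebp2, Eif4ebp3, Atf4, Dhps and Dohh lie outside that rule and were named after their values were seen. Alternatives were DESeq2 1.42.0, limma 3.58.1 on log2(FPKM + 1) or log2(FPKM + 0.1), limma-voom, other scalings and filters, a 1.5-fold null, a replicate block, each library left out and, added later, removal of the GC trend. Coordinates and promoters come from RefSeq on GRCm38.p6, also called mm10, and all 57 genes were found there.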

Additional observations from a re-analysis of the deposited data

How the results depend on the processing

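Against no change, 22 of the 37 called translation factors (18 lower, 4 higher) kept their call in each of 15 alternatives; the 4 higher were Eef2, Eif3k, Eif4e3 and Eif5a2. The other 15 lost it in at least 1, and none of the 37 reversed. For some genes, the alternatives named beside them above are not all of those in which the call changed. Counts of higher genes were 11 on library totals and 11 with limma on log2(FPKM + 1) or log2(FPKM + 0.1), against 7, where 40.0%, 37.2% and 36.9% of all genes tested were called higher. Lower genes numbered 18 with limma and no filter on FPKM, against 30, where 18.5% of all genes were called lower. Leaving out a library gave 4 to 10 higher and 18 to 35 lower genes, where 27.5% to 33.2% and 26.5% to 33.3% of all genes were called, with as few as 1 residual degree of freedom, and the lone library of a group assumed to vary like the other group. The 1.5-fold null, a stricter question, called 0 higher and 4 lower, and, over all tested genes, 3779, of which 2214 were higher and 1565 lower.

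The replicate block gave 9 higher and 27 lower translation factors, against 34.5% and 33.9% of all genes. The labels do not say what the replicate numbers mean. Deviations of NaBu 1 and control 1 from their group means correlated at -0.0306. With 2 libraries a group, this cannot show whether equal numbers share an animal or culture.

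The genes that changed sign had all failed the test. Eef1akmt1 was at 0.03 and Eif4h at 0.07 on library totals and in the 3 limma fits to FPKM, and Eif4h at 0.03 with at least 5 CPM. Eif3e was at 0.0 in those 4 and at 0.05 without the GC trend, and Eif3j1 at 0.0 with limma on FPKM. With no filter Eef1g, Eif2s3x and Eif3g were at -0.01, and Eif3g at -0.02 without the GC trend. Over the fits that left out a library, Eef1akmt1 ran from -0.15 to 0.02, Eef1g from -0.03 to 0.04, Eif2d from -0.01 to 0.05, Eif2s3x from -0.09 to 0.10, Eif3g from -0.05 to 0.06, Eif3j1 from -0.38 to 0.19 and Eif4e from -0.12 to 0.20. The cause of these shifts was not tested. Depth left 2 translation factors untested, Eef1a2 and Eif4e1b.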

Other observations

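Eif2s3y was not alone among Y-linked genes. Uty had 4.13 and 3.88 FPKM in NaBu cells, against 5.61 and 5.75 FPKM in control cells (log2 fold change -0.60 ± 0.08, edgeR adjusted p = 9.33e-05), and Kdm5d had 6.03 and 5.82 FPKM in NaBu cells, against 7.98 and 7.95 FPKM in control cells (-0.52 ± 0.07, adjusted p = 0.000102). Ddx3y, which encodes a DEAD-box RNA helicase, had 11.4 and 10.5 FPKM in NaBu cells, against 12.8 and 15.0 FPKM in control cells (-0.44 ± 0.09, adjusted p = 0.000983). All 4 tested Y-linked genes of the list were thus called lower, against 34.1% of all tested genes. Xist, the X-linked RNA, stood at 0.05 and 0.04 FPKM in NaBu cells, against 0.01 and 0.02 FPKM in control cells (1.47 ± 0.49, adjusted p = 0.0206). Leaving out either NaBu library left 3 of the list called lower and 0 higher.

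Of the 17 tested translation factors with several annotated transcripts, Eif4e2 showed the largest difference in abundance-weighted transcript length. It was 2459 and 2462 bases in NaBu cells, against 2307 and 2244 bases in control cells, 8.12% longer on average. The other 16 differed by -0.716% to 1.07%, and the lengths of the groups did not overlap for 8 of them. The same share over all genes with several transcripts was not computed, so nothing is drawn from that count. The length comes from RSEM's estimate of which transcripts are present, and no test was made of it.

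The control libraries differed from each other more than the NaBu libraries did. The median coefficient of variation of the translation factors was 2.41% in NaBu cells, against 4.2% in control cells, and over all tested genes it was 4.0%, against 6.14%. The SD was larger in control cells for 36 of the 55 tested translation factors.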
